A study of Mus musculus with 8 samples.

Results

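Axl, Mertk, Tyro3, Gas6 and Pros1 encode the TAM receptor tyrosine kinases (named after Tyro3, Axl and Mertk) and their ligands growth arrest-specific 6 and protein S. They were taken by symbol, as the probe sets annotated to 1 of these genes alone, and each of the 5 had exactly 1 probe set, among 19938 genes measured. Amplified total RNA was measured on 1 array per sample. The cells were microglia, the brain's own macrophages, sorted from mouse brains by high CD11b and intermediate CD45. The knockout group was 4 samples from Swiss Webster mice without multifunctional protein-2 (MFP2), and the control group was 4 samples from wild-type Swiss Webster mice. All were 17 weeks old and labelled female. MFP2 is the peroxisomal beta-oxidation enzyme encoded by Hsd17b4. No label says how the allele was made or whether a sample was 1 animal or a pool, and p-values therefore reflect only how these samples varied.

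TAM receptors sit in the plasma membrane of phagocytes and other cells. Their ligands carry a vitamin K-dependent domain that binds phosphatidylserine, a lipid exposed on dying cells and on membrane debris, and so join the debris to the receptor. Gas6 binds all TAM receptors, while protein S acts mainly on Tyro3 and Mertk. Receptor activation drives engulfment and dampens innate immune signalling, and in macrophages Mertk is typical of the resting state whereas Axl is induced by inflammatory stimuli.

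The sorted cells carried microglial markers in both groups, for example Tmem119 at 11.83 ± 0.12 in knockouts and 12.49 ± 0.10 in controls (log2, SD). The neutrophil gene S100a8 also gave high signal, at 11.20 to 12.12 in knockouts. In controls it ran from 9.86 in control 1 to 12.59 in control 3. Hsd17b4 was at 4.76, 7.20, 5.21 and 5.20 (log2) in knockout arrays 1 to 4, against 8.83, 9.09, 8.15 and 7.82 in control arrays 1 to 4, so that knockout 2 retained more signal than the other knockout arrays. Control 3 was the control array nearest to the knockout arrays at Axl, Mertk and several genes below. Control 1 did not match its female label, with Xist at 6.80 and the Y-linked gene Eif2s3y at 8.14, against at least 10.82 and at most 2.99 in the other control arrays. Array medians over all genes lay between 6.19 and 6.29. The changes of Axl and Mertk are given with and without these arrays. Calls of other genes that were lost with 1 array left out are named beside them.

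The promoters of Axl and Mertk are shown because these were the TAM genes whose levels passed the test. Each line gives the 250 bases before the start site in the RefSeq promoter table (build GRCm38.p6), 5′ to 3′ on the gene's own strand, with every GC box (GGGCGG on either strand, the core of Sp-family binding sites) in capitals. The Axl stretch is chr7:25788734-25788983 on the minus strand, and the Mertk stretch is chr2:128698665-128698914 on the plus strand.
Axl: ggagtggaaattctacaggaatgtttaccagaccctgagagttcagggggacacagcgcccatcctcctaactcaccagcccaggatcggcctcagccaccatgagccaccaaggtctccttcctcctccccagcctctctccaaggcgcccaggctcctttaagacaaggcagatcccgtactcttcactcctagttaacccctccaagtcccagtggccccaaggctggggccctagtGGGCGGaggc
Mertk: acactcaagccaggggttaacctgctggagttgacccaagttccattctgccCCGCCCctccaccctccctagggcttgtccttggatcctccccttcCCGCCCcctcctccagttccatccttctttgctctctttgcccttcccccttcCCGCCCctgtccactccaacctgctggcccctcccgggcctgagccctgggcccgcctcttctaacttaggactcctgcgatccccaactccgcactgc

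The Axl stretch held 1 GC box, which began 10 bases before the start site, and the Mertk stretch held 3. The start site used for Axl lies inside the annotated gene, which spans 25756500 to 25788924. Most of the Axl stretch, with its GC box, is therefore within the gene and not upstream of it. The Mertk stretch ends directly before its annotated gene start, 128698915. The stretches of Tyro3, Gas6 and Pros1 held 3, 4 and 5, and all 5 genes matched the table. That of Tyro3 also lies inside its gene (119797740 to 119818104). Of 32851 promoter stretches of this length 32.7% held at least 1 GC box, so its presence is common. Neither printed stretch held the letters TGANTCA (AP-1, in 6.75% of stretches), GAAANNGAA (an interferon-response core, 7.13%) or TTCNNNGAA (a STAT site, 7.02%). Pros1 held 1 match to the last of these. Letter matches describe these windows alone and say nothing on binding in these cells.

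Of the 5 TAM genes, 1 was higher in MFP2 knockout microglia (Axl), 1 was lower (Mertk), and 3 did not pass the test (Tyro3, Gas6 and Pros1). A gene is called higher or lower here when limma's moderated test, fitted over all 19938 genes, gave a Benjamini-Hochberg adjusted p under 0.05. Over all genes 5.38% were called higher and 4.17% lower, 9.55% in either direction. At an unadjusted limma p under 0.05, 2063 of the 19938 were higher and 2133 lower. Among the 9969 genes with means above the median over genes, fitted alone, 20.4% were called. The share called thus depended on signal level, which the 9.55% does not take into account. The groups did not overlap for Axl and Mertk, as for 14.0% of all genes. In bulk samples of sorted cells, fewer cells that express a gene and less of its RNA per cell cannot be told apart.

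**Figure D1:**
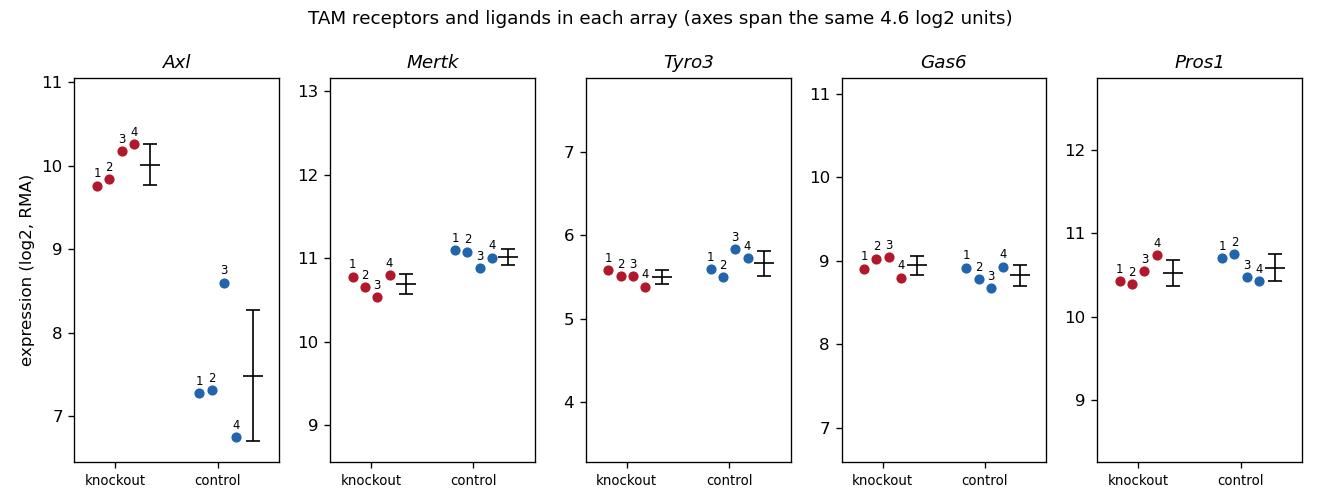
Log2 expression of each TAM gene (vertical axes, RMA values) in the 4 knockout arrays (red) and the 4 control arrays (blue), with array numbers beside the points and the mean ± SD as black bars. The axes are centred on each gene and span the same number of log2 units. Axl separates the groups with control 3 at 8.60, and the Mertk groups lie just apart.

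Among the receptors, Axl showed a large and Mertk a small difference, in opposite directions. Axl, the receptor for which Gas6 is the main ligand, had log2 values of 9.76, 9.84, 10.17 and 10.26 in knockout arrays 1 to 4. In control arrays 1 to 4 it had 7.28, 7.31, 8.60 and 6.75. All knockout arrays were above all control arrays, with a gap of 1.16 between the lowest knockout value and control 3, the highest control value. The knockout arrays lay close together, whereas the control arrays spread over 1.85 log2 units. Mean levels ± SD were 10.01 ± 0.25 in knockouts and 7.48 ± 0.79 in controls. Axl rose by 2.53 ± 0.30 (SE) on the log2 scale, or 5.76-fold with a 95% confidence interval of 3.67 to 9.04, at a limma adjusted p of 0.000433. It ranked 10 among all genes by the size of its increase.

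The size of the Axl increase depended on control 3. It was 2.90 without control 3, 2.28 without control 4, and between 2.44 and 2.61 without any other single array. Without control 3 and knockout 2 it was 2.95, and without control 1 as well it was 3.04. The adjusted p of limma stayed at or below 0.00603 under all 19 alternatives. An exact two-sided permutation test of the difference of means gave p = 0.0286 (n = 4 and 4), the smallest value that 4 against 4 arrays allow.

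Mertk, the receptor of resting phagocytes that takes up apoptotic cells, had log2 values of 10.78, 10.66, 10.54 and 10.80 in knockout arrays 1 to 4. In control arrays 1 to 4 it had 11.10, 11.08, 10.89 and 11.01. The highest knockout value, in knockout 4, lay 0.09 below control 3, the lowest control value. Mean levels were 10.69 ± 0.12 in knockouts and 11.02 ± 0.10 in controls (SD). Mertk fell by 0.33 ± 0.09 (SE) on the log2 scale, so that controls were 1.25-fold higher, at a limma adjusted p of 0.0466 and an exact permutation p of 0.0286.

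The call of Mertk was marginal. It kept its direction under all 19 alternatives but passed the threshold under 7 of them. Of the 8 fits that left out 1 array, only that without control 3 called it (adjusted p = 0.0353), and the others gave limma adjusted p of 0.0517 to 0.148. It was not called without control 3 and knockout 2 (adjusted p = 0.0758), nor without control 1 as well (0.221). Its change ran from -0.37 to -0.27 when 1 array was left out.

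Tyro3, the TAM receptor best known from neurons, had log2 values of 5.58, 5.51, 5.51 and 5.39 in knockout arrays 1 to 4. In control arrays 1 to 4 it had 5.60, 5.50, 5.83 and 5.72. The groups overlapped, and the highest values were those of control 3 and control 4. The difference of -0.16 ± 0.10 (SE) had a 95% confidence interval of -0.37 to 0.04 and a limma adjusted p of 0.375. Its values lay below the array medians, where RMA values can understate changes.

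The ligands did not pass the test, and their intervals exclude changes of the size seen for Axl. Gas6, the bridging ligand of all TAM receptors, had log2 values of 8.91, 9.02, 9.05 and 8.80 in knockout arrays 1 to 4. Control arrays 1 to 4 were at 8.92, 8.78, 8.67 and 8.93, so the groups overlapped with knockout 2 and knockout 3 at the top. The difference was 0.12 ± 0.10 (SE), with a 95% confidence interval of -0.09 to 0.33 (adjusted p = 0.562, limma), which allows at most 1.25-fold more in knockouts.

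Pros1, which encodes the anticoagulant protein S, had log2 values of 10.42, 10.39, 10.54 and 10.74 in knockout arrays 1 to 4. Control arrays 1 to 4 were at 10.70, 10.75, 10.47 and 10.42, and each group held high and low arrays. The difference was -0.06 ± 0.11 (SE), with a 95% confidence interval of -0.30 to 0.18 (adjusted p = 0.825, limma), or 0.810-fold to 1.13-fold. Exact permutation p-values were 0.143 for Tyro3, 0.257 for Gas6 and 0.600 for Pros1 (n = 4 and 4), unadjusted.

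**Figure D2:**
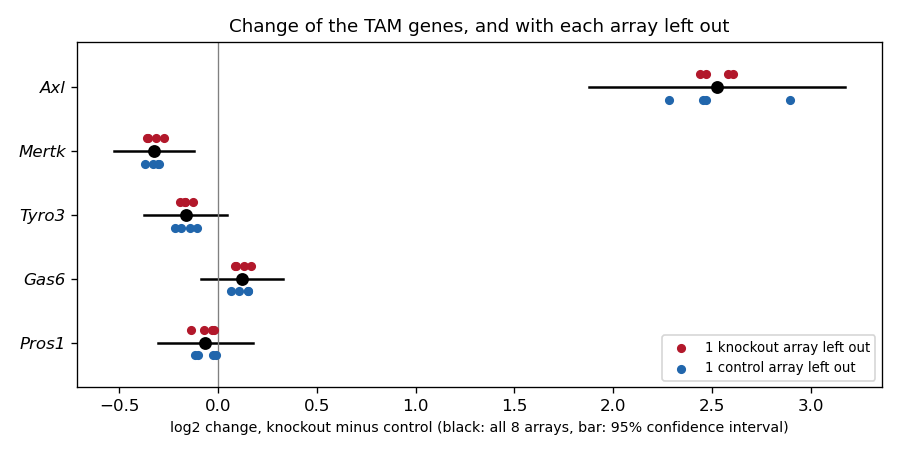
Log2 change of each TAM gene, knockout minus control (horizontal axis), with all 8 arrays (black point, bar for the 95% confidence interval of the limma fit) and with 1 knockout array (red) or 1 control array (blue) left out. Axl lies between 2.28 and 2.90 with 1 array left out, and the intervals of Tyro3, Gas6 and Pros1 cross 0.

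The level of Axl relative to the other TAM genes within an array differed between the groups. The log2 value of Axl minus that of Mertk was -1.02, -0.82, -0.36 and -0.54 in knockout arrays 1 to 4. In control arrays 1 to 4 it was -3.82, -3.77, -2.29 and -4.26. The groups did not overlap, and control 3 again lay closest to the knockout arrays. The difference of means was 2.85, a 7.22-fold shift of the ratio of these probe sets. Because probe sets differ in their response, the ratio shows unequal change and not which receptor was more abundant. The value of Axl minus Gas6, a receptor and its ligand, shifted by 2.41 without overlap and lay between 0.82 and 1.47 in knockout arrays, against -2.18 to -0.07 in control arrays. Axl minus Tyro3 and Axl minus Pros1 shifted by 2.69 and 2.59, also without overlap, so these shifts largely restate the change of Axl itself. Mertk minus Gas6 (-0.44) and Tyro3 minus Gas6 (-0.28) did not overlap either. The remaining pairs overlapped, among them Mertk minus Tyro3 (-0.16). These ratios reuse the values above and were not tested.

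The spread of the 5 genes within groups also differed. The pooled within-group SD of Axl was 0.58, larger than that of 99.4% of all genes, and came mainly from the controls. For Mertk, Tyro3 and Gas6 it lay between 0.11 and 0.12, and for Pros1 it was 0.16. The change of Axl was larger in size than that of 99.9% of genes, that of Mertk larger than 85.9%, and that of Pros1 larger than 31.8%.

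Genes with the most similar profiles were found by the root mean square difference of log2 values over the 8 arrays, after centring each gene on its own mean. The 5 closest to Axl were Fabp5, which binds fatty acids in the cytosol (0.09), the integrin gene Itgax, which encodes CD11c (0.13), Wfdc17, a small secreted protein of macrophages (0.17), the hydroxycarboxylic acid receptor gene Hcar2 (0.18) and the apolipoprotein gene Apoc1 (0.19). Only these 5 genes lay within 0.2 of Axl. Fabp5 had log2 values of 8.67, 8.95, 9.15 and 9.08 in knockout arrays 1 to 4, against 6.29, 6.37, 7.56 and 5.62 in control arrays 1 to 4. As for Axl, control 3 was the highest and control 4 the lowest control array. The changes of these 5 genes ran from 2.25 for Wfdc17 to 2.50 for Fabp5. Such likeness to Axl in single arrays and in the change follows from choosing the genes by profile.

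The profile of Mertk was not distinctive in the same sense. Its 5 closest genes were Cramp1l, Zfp869, Zc3h13, the ubiquitin ligase gene Herc1 and the lysophospholipid acyltransferase gene Lpcat1, at 0.03 to 0.04. However, 370 genes lay within 0.1 of Mertk, and 6500 within 0.2, a distance larger than that of Mertk from a flat profile (0.19). Of the 5, Herc1 was called lower in knockouts (-0.39, limma adjusted p = 0.0212), a call lost without knockout 3, control 1, control 2 or control 4 (adjusted p up to 0.0758), and the others were at -0.29 to -0.34 without passing the test.

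**Figure D3:**
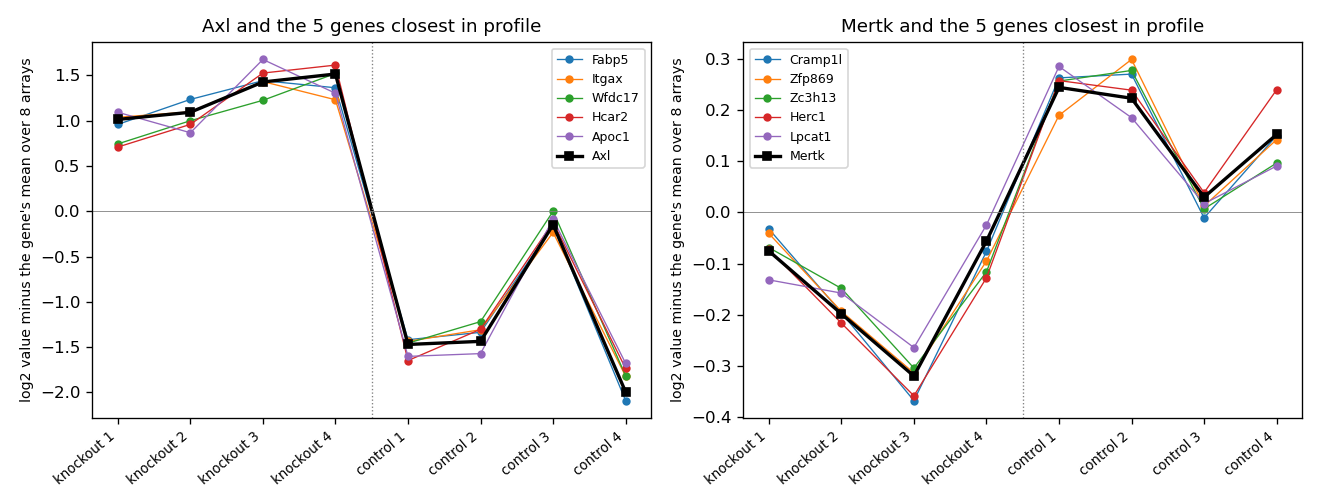
Log2 value minus the gene's mean over the 8 arrays (vertical axes, on different scales) in each array, for Axl (left) and Mertk (right) in black with their 5 closest genes in colour. Lines join the values of a gene and imply no order of arrays. The genes closest to Axl share its high value in control 3 relative to the other controls, which follows from their choice by profile.

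Of 53 receptor tyrosine kinases measured outside the TAM group, 1 was higher and 2 were lower (5.66%, against 9.55% of all genes). Most of the 53 lay below the array medians, where RMA values can understate changes, so the share says little of those kinases. At an unadjusted limma p under 0.05, 1 was higher and 9 lower, against 2063 and 2133 of all 19938 genes. The median change was -0.05, against -0.02 over all genes. Flt1, a receptor for vascular endothelial growth factor, was at 7.11, 7.22, 8.00 and 8.37 in knockout arrays 1 to 4, and at 5.35, 5.42, 6.53 and 5.44 in control arrays 1 to 4. It rose by 1.99 ± 0.30 (SE, limma adjusted p = 0.00143), the one kinase of the list near the size of the Axl change, and control 3 was again the highest control (2.27 without it). Csf1r, the receptor on which microglial survival depends, fell by 0.35 ± 0.08, and the ephrin receptor gene Epha1 fell by 0.36 ± 0.10. The 2 lower calls became 0 without knockout 3 or control 1, and 1 without knockout 4, control 2 or control 4. Epha1 was called in only 2 of the 8 fits with 1 array left out, those without knockout 2 and without control 2, and its limma adjusted p there ran up to 0.0980. Csf1r was called in 5 of the 8, and lost its call without knockout 3, control 1 or control 2. With the replicate block the adjusted p of Epha1 was 0.0532. Whether the change of Axl differs from that of Flt1 was not tested.

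Other receptors and bridging proteins for phosphatidylserine moved in both directions. Of 25 measured, 2 were higher and 4 lower (24.0%, against 9.55% of all genes and 20.4% of the brighter genes fitted alone). The median change was 0.07. At an unadjusted limma p under 0.05, 4 were higher and 5 lower. Cd300lf, an inhibitory receptor that binds phosphatidylserine and ceramide, was at 8.85, 8.86, 9.34 and 9.50 in knockout arrays 1 to 4, and at 6.30, 7.04, 7.60 and 6.83 in control arrays 1 to 4. It rose by 2.20 ± 0.23 (SE, limma adjusted p = 0.000290). The scavenger receptor gene Cd36 rose by 2.34 ± 0.40, with means of 7.71 ± 0.97 in knockouts and 5.36 ± 0.56 in controls (SD).

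The 4 lower genes were the scavenger receptor gene Stab1, the integrin subunit genes Itgav and Itgb5, and Cd300a, another inhibitory receptor. Stab1, which encodes stabilin-1, was at 8.38, 8.41, 7.89 and 7.87 in knockout arrays 1 to 4, and at 9.56, 9.66, 9.07 and 9.18 in control arrays 1 to 4. It fell by 1.23 ± 0.16 (SE, limma adjusted p = 0.000677), and its groups were well apart. Itgav fell by 0.57 ± 0.10, Cd300a by 0.40 ± 0.11 and Itgb5 by 0.30 ± 0.09. Itgav and Itgb5 encode an integrin pair that binds the bridging protein Mfge8, which was at 7.05 ± 0.06 in knockouts and 6.97 ± 0.11 in controls (SD). Mfge8 did not pass the test (adjusted p = 0.705, limma). The 4 lower calls became 2 without knockout 3, control 1, control 2 or control 4, and also without control 3 and knockout 2 together. Cd300a lost its call in 6 of the 8 fits with 1 array left out, all but those without knockout 1 or knockout 2. Itgb5 kept its call only without control 3 (limma adjusted p = 0.0439, against up to 0.145 in the others), and lost it with the replicate block (0.0694).

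In the exposure of phosphatidylserine on the cell surface, limma called 1 of 13 genes higher and 0 lower (7.69%, against 9.55% of all genes). At an unadjusted limma p under 0.05, 2 were higher and 1 lower. The gene called higher was Plscr1, a scramblase family member that interferon induces. It was at 7.04, 7.52, 7.99 and 8.07 in knockout arrays 1 to 4, and at 6.36, 6.36, 6.88 and 6.41 in control arrays 1 to 4, a rise of 1.15 ± 0.20 (SE). Xkr8, the scramblase of dying cells, and Ano6, the calcium-activated scramblase, did not pass the test, at -0.15 and -0.08.

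Genes that process the receptors and ligands gave no calls. Of 7 measured, limma called 0 higher and 0 lower, against 9.55% of all genes called. In each direction 1 had an unadjusted p under 0.05. These were Vkorc1, which recycles vitamin K (0.30 ± 0.14, SE), and Ggcx, the gamma-carboxylase that modifies Gas6 and protein S (-0.26 ± 0.11). The sheddases that cleave Axl and Mertk from the surface, Adam10 and Adam17, differed by -0.13 ± 0.11 and 0.10 ± 0.10.

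Of 19 engulfment genes 1 was higher and 1 lower (10.5%, against 9.55% of all genes and 20.4% of the brighter genes fitted alone). The median was -0.17, and at an unadjusted limma p under 0.05, 2 were higher and 7 lower. Elmo1, part of the exchange factor that activates Rac downstream of phagocytic receptors, fell by 0.96 ± 0.14 (SE, limma adjusted p = 0.00115). It was at 10.23, 9.94, 9.87 and 10.00 in knockout arrays 1 to 4, and at 11.07, 11.15, 10.52 and 11.14 in control arrays 1 to 4. Rac2, the haematopoietic Rac GTPase, rose by 0.70 ± 0.14, with all knockout values between 10.41 and 10.98 above the control values of 9.85 to 10.29. The count of 1 lower gene became 2 without knockout 1 or knockout 4 and 3 without knockout 2 or control 3, and reached 4 after quantile normalization.

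Among 23 signalling and feedback genes limma called 0 higher and 3 lower (13%, against 9.55% of all genes and 20.4% of the brighter genes fitted alone). At an unadjusted p under 0.05, 2 were higher and 5 lower, and the median was 0.00. Pik3r1, a regulatory subunit of the lipid kinase that TAM receptors recruit, fell by 0.54 ± 0.10 (SE). Cbl, a ubiquitin ligase for activated receptors, fell by 0.48 ± 0.10, and the catalytic subunit gene Pik3ca by 0.36 ± 0.10. Pik3ca was called in only 2 of the 8 fits with 1 array left out, those without knockout 1 and without control 3, and its limma adjusted p there ran up to 0.118. The count of lower genes was 2 in the other 6 fits. The count of 0 higher became 1 without control 4. Socs1 and Socs3, the feedback inhibitors through which TAM receptors dampen cytokine signalling, differed by 0.11 and 0.43 without passing the test. Ifnar1, with which Axl pairs in that feedback in dendritic cells, differed by 0.13.

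**Figure D4:**
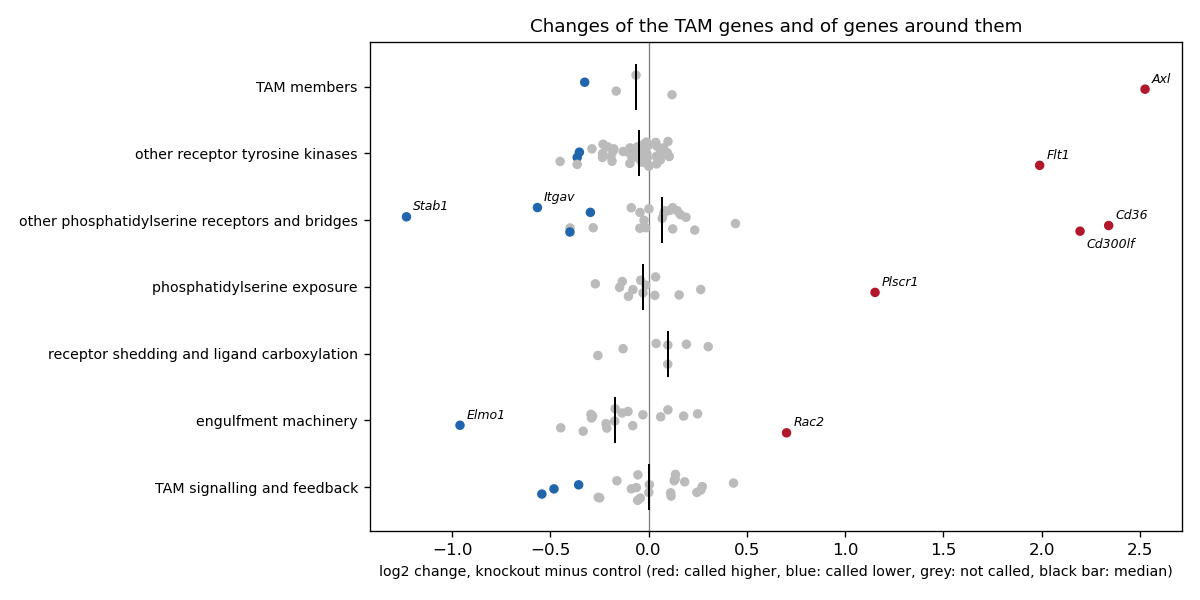
Log2 change, knockout minus control (horizontal axis), of the TAM genes and of the measured genes of 6 related lists, with genes called higher in red, called lower in blue, not called in grey and the list median as a black bar. Called genes with a change above about 0.55 in size are named. Axl, Cd36, Cd300lf and Flt1 lie near 2 or above, apart from the other members of their lists.

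Markers of microglia and of other cells moved with the groups in part. Of the microglia markers 72.7% were called and of the border macrophage markers 75%, against 9.55% of all genes. Of 11 microglia markers 8 were lower and 0 higher in the limma fit (1 higher at an unadjusted p under 0.05), with a median of -0.50. The lower ones were Tmem119, P2ry12, Sall1, Olfml3, Gpr34, Siglech, Cx3cr1 and Csf1r, the last also counted among the kinases. Itgam, Ptprc and Aif1 did not pass the test. The summed linear level of the 11 ran from 27059 to 30444 in knockouts and from 37122 to 43359 in controls. Mertk, also lower, moved by less than the median of these markers. Of 8 markers of border macrophages, which express TAM receptors too, 4 were lower (Mrc1, Pf4, Lyve1 and F13a1) and 2 higher (Siglec1 and Ms4a7), with sums of 666 to 1046 in knockouts and 746 to 1148 in controls. With 1 array left out, Lyve1 and Siglec1 were called in 4 of 8 fits and F13a1 in 3 of 8.

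Of 7 astrocyte markers 2 were higher (Gfap by 1.28 and Aldoc by 0.76), and 4 at an unadjusted p under 0.05, with a median of 0.26. The share called was 28.6%, with 16.7% for oligodendrocyte, 33.3% for endothelial and 14.3% for monocyte and neutrophil markers, against 9.55% of all genes. Gja1, Slc1a3 and Aqp4 differed by -0.70, -0.10 and -0.02 without passing the test. Aldoc lost its call without knockout 2, knockout 3, knockout 4 or control 1. Astrocyte sums were 833 to 903 in knockouts and 763 to 858 in controls. Of 6 oligodendrocyte markers 1 was higher (Mbp, 0.59) with a median of -0.02, and 1 in each direction had an unadjusted p under 0.05. Mog, the lower one, differed by -0.24, and Mag and Cnp by -0.06 and -0.09. Oligodendrocyte sums were 622 to 692 in knockouts and 545 to 615 in controls. Of 6 endothelial markers 1 was higher (Flt1) and 1 lower (Pecam1), both of which leukocytes can express, and Cldn5 and Cdh5 differed by -0.10 and -0.01. The sums of these endothelial markers ran from 375 to 587 in knockouts and from 369 to 513 in controls. Flt1 was their largest part in knockouts (mean 7.67, log2) and Pecam1 in controls (7.57). The sums therefore say little on endothelial cells. Of 7 monocyte and neutrophil markers 1 was lower (Ccr2, which fell by 0.59), with sums of 6594 to 11798 in knockouts and 2930 to 17720 in controls. Limma called 0 of 10 lymphocyte and 0 of 7 neuron markers, with 1 higher in each at an unadjusted p under 0.05. Lymphocyte sums ran from 853 to 1188 in knockouts and from 647 to 959 in controls, and neuron sums from 305 to 345 in knockouts and from 287 to 323 in controls. The part of these cells in the TAM results was not tested.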

How the data were processed

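Per the submitters' processing notes the authors used RMA; the deposited log2 values are 1 per probe set and array. No source names the RMA version or chip library, and the base of the log is taken from the value range of 2.04 to 13.99. Of 28874 probe sets 21789 had 1 gene symbol in the platform annotation, and the probe set with the highest mean stood for each of 19938 genes.

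Knockout minus control was fitted over all genes with limma 3.58.1 in R 4.3.3 (lmFit, eBayes, no covariate) with Benjamini-Hochberg adjustment, and the procedure was tested on simulated data. SE and intervals come from that fit; 4 arrays per group limit the precision. Permutation tests are exact, two-sided and unadjusted. Lists are described by counts and medians; listed genes without a probe set of their own were not analysed here. Alternatives left out arrays, changed the normalization, filter, probe-set rule, prior, weights or threshold, or added a replicate block.

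The members and lists were chosen with earlier results of these data known. Genes named are the members, the 5 closest profiles of each called member, up to 5 called genes of each list by adjusted p (2 where none passed), called markers, Hsd17b4 and sex-specific genes. Itgb5, Mfge8, Xkr8, Ano6, Adam10, Adam17, Socs1, Socs3, Ifnar1, Cldn5, Cdh5, Gja1, Slc1a3, Aqp4, Mog, Mag, Cnp, S100a8, Itgam, Ptprc and Aif1 were added after their values were seen.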

Additional observations from a re-analysis of the deposited data

Results flagged for a closer look

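Within a group of 4 arrays, a value is given here when its gap to the nearest other array exceeded Dixon's 95% critical share of the group's range. Chance gives about 1 such group in 20, and 110 groups were looked at. None of the 5 TAM genes met the criterion. Control 3 stood apart from the other controls at Flt1 (6.53, next 5.44), Plscr1 (6.88, next 6.41) and Apoc1 (7.06, next 5.57), which rose in knockouts, and at Elmo1 (10.52, next 11.07) and Herc1 (8.26, next 8.46), which fell. In each case it lay on the knockout side of the other controls. For Apoc1 and Herc1 this follows in part from their choice as profiles close to Axl and Mertk, where control 3 lay on that side. Knockout 3 had the lowest Csf1r of its group (12.26, next 12.36).

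Control 1 stood apart at the sex-specific transcripts, with Xist at 6.80 (next 10.82), Eif2s3y at 8.14 (next 2.99), Kdm5d at 7.41 (next 4.42) and Uty at 6.49 (next 3.50). Without control 1 the change of Axl was 2.46, and that of Mertk was -0.30 with its call lost.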

How the results depend on the processing

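The changes of Axl, Tyro3, Gas6 and Pros1 kept their direction and their side of the threshold under every alternative run (19, or 18 for Tyro3, which is among the dim genes). Other probe sets could not be tried, as each TAM gene has 1, so the probe-set alternative reused the same values of these genes. The stricter threshold could not add a call for Tyro3, Gas6 or Pros1. With 1 array left out, the change of Axl ran from 2.28 to 2.90, of Mertk from -0.37 to -0.27, of Tyro3 from -0.22 to -0.11, of Gas6 from 0.07 to 0.17 and of Pros1 from -0.14 to -0.01. Besides those fits, the call of Mertk, and with it the count of lower TAM genes (0 in place of 1), was lost with the replicate block (-0.33, adjusted p = 0.0556), without control 3 and knockout 2 (-0.36), without control 1 as well (-0.34), with arrays centred on their medians (-0.32) and at an adjusted p under 0.01 (-0.33). The count of lower TAM genes was 0 to 1 with 1 array left out.

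The lower receptor tyrosine kinases numbered 0 without control 1, control 3 and knockout 2 and at the stricter threshold, and 0 to 2 with 1 array left out. The lower phosphatidylserine receptors numbered 2 without control 3 and knockout 2, without control 1 as well, after median centring, after cyclic loess and at the stricter threshold, and 2 to 3 with 1 array left out. The lower engulfment genes numbered 2 with the replicate block, without control 3 and knockout 2 and with an intensity trend, 3 after cyclic loess, 4 after quantile normalization, without dim genes or with array weights, and 1 to 3 with 1 array left out. The signalling genes had 1 lower without the 3 arrays, and 0 to 1 higher with 1 array left out. The calls of Epha1, Itgb5, Cd300a and Pik3ca were lost in 10 of 18, 13 of 19, 12 of 19 and 9 of 19 alternatives, and those of Csf1r and Herc1 in 5 and 6 of 19. Cbl and Mbp each lost their call in 1 of 19 (limma adjusted p of 0.0541 and 0.0630). The cause of these shifts was not tested.

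No clear pairing of the arrays by the replicate numbers of the labels was visible. Deviations from the group means correlated at 0.16, -0.06, 0.01 and 0.01 for numbers 1 to 4, and 1 of 4 knockout arrays correlated best with its own number. Whether the arrays were paired cannot be told from such correlations. With the replicate block 1029 genes were higher and 826 lower, against 1073 and 832 without it. Over all genes the counts of 1073 and 832 became 649 and 494 without control 1, control 3 and knockout 2, and 567 and 358 at the stricter threshold. Lower genes numbered 507 without knockout 3, 517 without control 2 and 544 without control 1. Low signal over background limits what can be said of Tyro3 and of most of the other receptor tyrosine kinases.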
